A study of Pogonatum aloides with 7 samples.

Results

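The big capsule of the moss Pogonatum aloides, labelled stage 5, was compared with the young gametophyte of the same species. The comparison took 2 of the 7 samples of the series, each a single wild type library, and 54091 of 74566 unigenes. A unigene was kept when it reached 1 RPKM in either library. RPKM is a read number scaled to the length of the unigene and the size of the library, and a unigene is a sequence assembled from RNA reads without a genome. The labels call the gametophyte material seedlings, and the series names it as the control for capsules of stages 1 to 5. Stages 1, 2 and 3 are labelled small, stage 4 middle and stage 5 big, and the stages before the fifth are used here for side-by-side levels. The labels give neither the number of plants in a library nor the treatment of the calyptra, the cap of gametophyte tissue that covers a young moss capsule. With 1 library a side no test was possible, and all differences describe these libraries.

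In mosses the leafy, photosynthetic plant is the haploid gametophyte, and the diploid sporophyte grows on it and is fed by it through a foot. The capsule is the upper part of the sporophyte, in which spore mother cells pass through meiosis and the spores mature. Mosses of the haircap family, to which Pogonatum belongs, shed spores through the teeth of a peristome at the mouth of the ripe capsule. The identifiers carry no gene names, so the marker genes of spores, photosynthesis or stomata could not be looked up and neither label could be checked against them. Unigenes are therefore described by level, length and distribution over the libraries, and 4 of them are named.

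The implied depth was 5729201 reads in stage 5 and 3821669 in the gametophyte, and between 5458335 and 5752394 in stages 1 to 4. One read on a unigene of 1 kb was worth more RPKM in the gametophyte, where 3 reads gave 0.785 RPKM against 0.524 in stage 5. The library totals and unigene lengths were worked back from the spacing of low values, and the reads obtained from them are called recovered reads. Stage 5 listed 43323 unigenes and the gametophyte 46680. After stage 5 had been thinned to the total of the gametophyte it listed 40267.

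Fewer unigenes were listed in both libraries than in one of them. Of the 54091 kept, 21489 (39.7%) had a value on both sides, 12129 (22.4%) had one in stage 5 and not in the gametophyte, and 20473 (37.8%) had one in the gametophyte and not in stage 5. The reads were distributed otherwise. Unigenes listed in both held 93.5% of the recovered stage 5 reads and 81.9% of the recovered gametophyte reads. Those listed in stage 5 and not in the gametophyte held 6.03% of the stage 5 reads and 11.7% of its summed RPKM. Those listed in the gametophyte and not in stage 5 held 17.8% of its recovered reads and 35.0% of its summed RPKM. Recovered reads made up 96.1% of the implied gametophyte total and 99.6% of that of stage 5. Reads of unigenes listed in 1 library can be underestimated, so the 17.8% may be too low and the 81.9% too high. In bulk samples such as these, fewer cells of a type and less RNA per cell cannot be told apart.

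**Figure D1:**
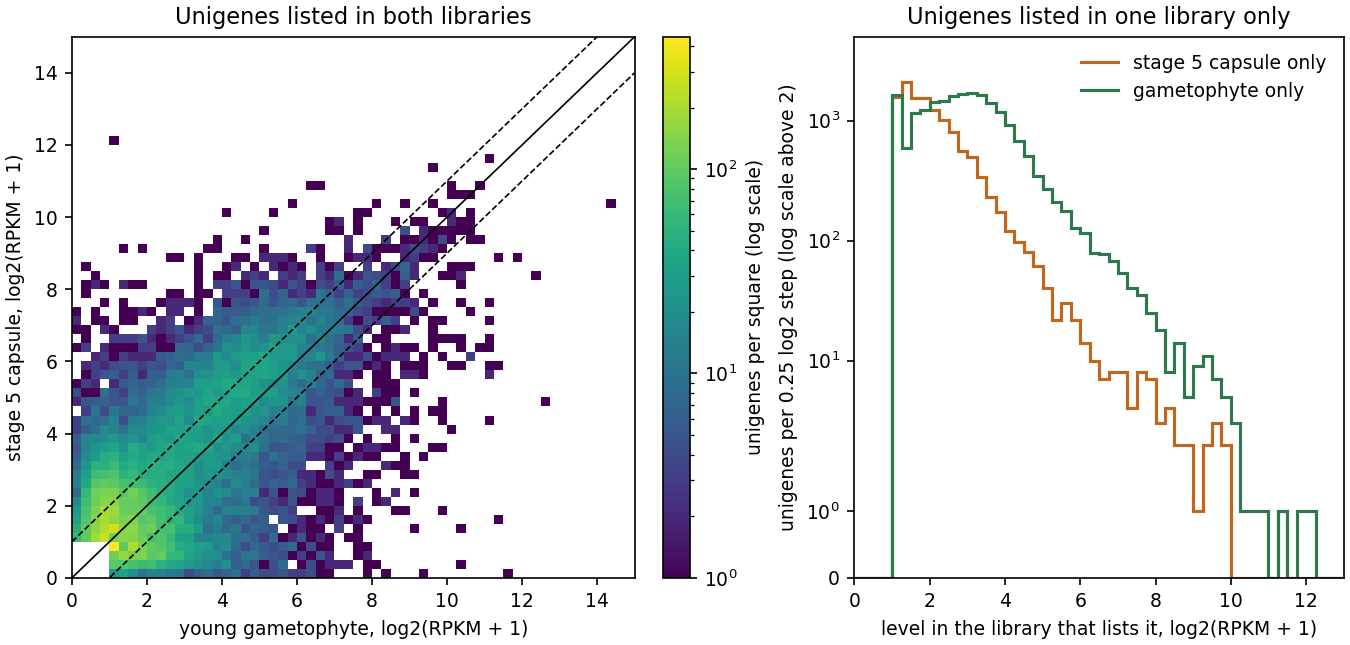
The left panel plots the stage 5 level against the gametophyte level, both as log2(RPKM + 1), for the 21489 unigenes listed in both libraries, with colour for the number of unigenes per square, a solid line for equal levels and dashed lines for a 2-fold ratio. The right panel counts the 12129 unigenes listed in stage 5 and not in the gametophyte and the 20473 of the reverse kind by their level, and the gametophyte curve extends further to high levels.

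At least 2-fold differences in RPKM + 1 were divided unequally, with 18712 unigenes higher in stage 5 (34.6% of those kept) and 24652 lower (45.6%). A minimum of 10 RPKM kept 16397 unigenes, of which 4656 were higher (28.4%) and 8624 lower (52.6%). At 100 RPKM the sides were nearly even, with 779 higher (37.4%) and 758 lower (36.4%) of 2083. The larger number on the gametophyte side came from unigenes that stage 5 did not list. These made up 20473 of the 24652 lower unigenes at 1 RPKM, and 6642 of the 8624 at 10 RPKM. A unigene listed on one side with 1 RPKM or more is beyond 2-fold by construction of the ratio. Among unigenes of at least 500 bases the order was the opposite, with 8133 higher and 7141 lower in stage 5. With at least 20 reads in either library the numbers were 6938 higher and 7189 lower. Both pairs of numbers are as deposited and rest on recovered lengths, which can be too short for unigenes listed in 1 library. Of the 20473, 16646 were listed in none of stages 1 to 4 either. Of the 12129 listed in stage 5 and not in the gametophyte, this held for 498. These minimums can therefore remove more unigenes on the gametophyte side, and the part this played was not tested.

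Among the 21489 unigenes listed in both, 6583 (30.6%) were at least 2-fold higher in stage 5 and 4179 (19.4%) at least 2-fold lower, with the RPKM as deposited. They gave a median log2 ratio of 0.30, with quartiles of −0.73 and 1.23. This surplus of higher unigenes depended on how the libraries were scaled to each other. TMM scaling, which sets a trimmed mean of the log2 read ratios to zero, multiplied the gametophyte RPKM by 1.31 (0.39 in log2). Because 1 is added afterwards, ratios of low unigenes moved by less. This scaling kept 22007 unigenes and left 5184 higher and 5605 lower. Scaling to the median ratio of unigenes with at least 10 RPKM on both sides multiplied the gametophyte RPKM by 1.40 (0.49 in log2). It kept 22123 unigenes and left 4910 higher and 5967 lower. The share of higher unigenes among those beyond 2-fold was 61.2% as deposited, 48.0% after TMM and 45.1% after median-ratio scaling. Of the unigenes with 10 RPKM or more in either library, 8730 were listed in both, with a median log2 ratio of 0.63 as deposited. Of these, 3631 (41.6%) were higher and 1982 (22.7%) lower. TMM scaling left 2916 higher and 2716 lower there, and median-ratio scaling 2747 and 2955. For the 1687 listed in both at 100 RPKM, 721 were higher (42.7%) and 420 lower (24.9%) as deposited.

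The tails of the ratio did not have the same length. At 4-fold, 2426 unigenes listed in both were higher in stage 5 (11.3%) and 1715 lower (7.98%), but at 10-fold there were 523 higher (2.43%) and 569 lower (2.65%), and at 100-fold 19 higher (0.0884%) and 26 lower (0.121%). After TMM scaling the lower side was the larger at each of these folds, with 1760 against 2366 at 4-fold, 378 against 792 at 10-fold and 15 against 41 at 100-fold. A further 6312 unigenes (29.4%) lay within 1.5-fold of each other as deposited. With 10 RPKM or more this share was 21.2%. The 95% exact counting interval of the read ratio covered equality for 9793 of the 21489 unigenes (45.6%), but for 1038 of the 8730 at 10 RPKM or more (11.9%). Such intervals hold for these 2 libraries and cover counting error only. At the 2-fold border, the unigene just inside stood at 1.60 RPKM in stage 5 and 0.2997 in the gametophyte, and the one just outside at 1.18 and 0.0882.

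**Figure D2:**
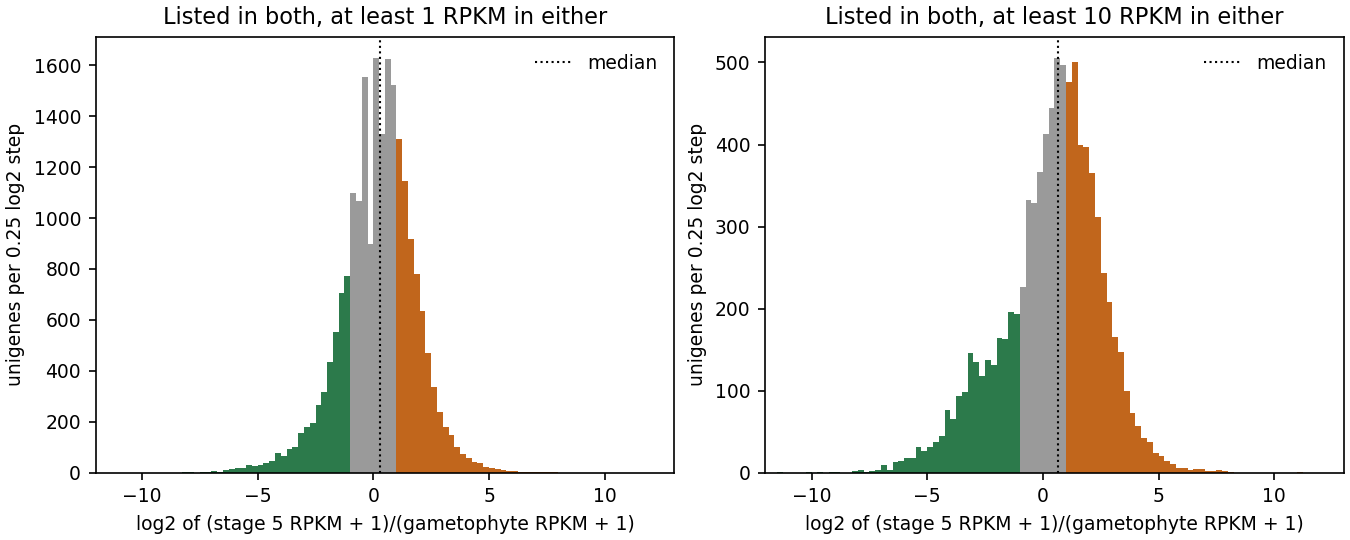
The histograms show the log2 ratio of RPKM + 1, stage 5 over gametophyte, for unigenes listed in both libraries with at least 1 RPKM (left) and at least 10 RPKM (right) in either, as deposited. Orange marks ratios of at least 2 in favour of stage 5, green at least 2 in favour of the gametophyte and grey those between, and the dotted line is the median, at 0.30 on the left and 0.63 on the right.

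The balance between the organs varied with the level of expression. Among unigenes listed in both with a mean over both libraries from 20 to 50 RPKM, 42.2% were at least 2-fold higher in stage 5 and 17.3% lower, and the median log2 ratio was 0.73. From 50 to 100 RPKM the median was 0.71, and from 100 to 200 RPKM it was 0.63. Above a mean of 200 RPKM the median was −0.22, and 22.7% of 405 unigenes were higher and 32.8% lower. The order of these bands was the same after TMM scaling, with medians of 0.34, 0.33, 0.23 and −0.62. Listing on one side also varied with level. Of the unigenes with a mean from 5 to 10 RPKM, 56.6% were listed in the gametophyte and not in stage 5 and 8.74% the reverse. Above 200 RPKM these shares were 10.9% and 2.36%.

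Among unigenes listed in both, the one with the highest ratio was CL3401.Contig3, a contig of 1053 bases and the most abundant unigene of stage 5. It stood at 4757 RPKM in stage 5 and at 1.24 RPKM, or 5 reads, in the gametophyte. In stages 1 to 4 it stood at 12653, 17433, 25725 and 6496 RPKM, so that stage 5 was the lowest of the 5 capsule libraries. The ratio of RPKM + 1 was 2122, and stage 5 had 3828 times the reads at equal depth (95% exact counting interval, 1640 to 11792). The second unigene by this ratio, of 1581 bases, stood at 363 RPKM in stage 5 and 0.331 in the gametophyte, and at 93.0, 77.4, 77.1 and 33.95 RPKM in stages 1 to 4. Here stage 5 was the highest of the capsules. The third, of 2507 bases, had 293 RPKM in stage 5 and 0.209 in the gametophyte, with 38.8, 1.66, 2.08 and 459 RPKM in stages 1 to 4.

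All 19 unigenes at least 100-fold higher in stage 5 were listed in every library. Their levels ran from 113 to 4757 RPKM in stage 5, with a median of 279, and from 0.0799 to 2.52 RPKM in the gametophyte. Their medians in stages 1 to 4 were 94.1, 77.4, 74.8 and 116 RPKM. The lowest of them in stage 4 stood at 11.1 RPKM, whereas in stages 1 and 3 the lowest were at 0.120 and 0.334 RPKM. Stage 4 thus held all 19 above 10 RPKM, and stages 1, 2 and 3 held 14, 14 and 12. Stages 1 to 4 had no part in the choice of these unigenes. Of all 6583 unigenes listed in both and at least 2-fold higher, they listed 96.0%, 98.0%, 94.9% and 96.7%.

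The 523 unigenes at least 10-fold higher in stage 5 had a median of 58.4 RPKM there and 1.71 in the gametophyte. In stages 1 to 4 their medians were 22.9, 22.4, 14.6 and 21.6 RPKM. Each of these lay between the medians of stage 5 and the gametophyte, a position that the choice by high stage 5 and low gametophyte values favours. Stage 5 had the highest value of the 5 capsule libraries for 311 of the 523, which the choice of the unigenes by their stage 5 level favours. Among the stages that had no part in the choice, the highest was stage 1 for 185, stage 2 for 151, stage 4 for 145 and stage 3 for 42.

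On the gametophyte side, the lowest ratio among unigenes listed in both was that of Unigene30382, of 945 bases. Its level was 3031 RPKM, or 10945 reads, in the gametophyte and 0.185 RPKM, or 1 read, in stage 5. In stages 1 to 4 it had 1.66, 0.184, 0.921 and 0 RPKM. The ratio of RPKM + 1 was 2559 in favour of the gametophyte, and at equal depth the reads were 16408-fold lower in stage 5, a value whose 95% exact counting interval spans 2944 to 648142. The second, of 872 bases, stood at 1403 RPKM in the gametophyte and 0.200 in stage 5, with 15.2, 8.77, 28.3 and 0.210 RPKM in stages 1 to 4. The third, a contig of 324 bases, had 2633 RPKM in the gametophyte and 2.15 in stage 5. Its levels of 428, 23.1, 1086 and 5.65 RPKM in stages 1 to 4 placed stages 1 and 3, on a log scale, nearer to the gametophyte and stages 2 and 4 nearer to stage 5. A contig of 298 bases with the same cluster number went the other way, with 126.5 RPKM in stage 5 and 0 in the gametophyte. In stages 1 to 4 that contig had 0, 741, 0 and 148 RPKM, so the 324-base contig does not stand for its cluster.

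The 26 unigenes at least 100-fold lower in stage 5 ran from 122 to 6809 RPKM in the gametophyte and from 0.0742 to 30.5 RPKM in stage 5. Their medians were 1.66, 2.63, 1.44 and 1.65 RPKM in stages 1 to 4 and 0.476 in stage 5. Stage 1 listed 22 of the 26, and stages 2, 3 and 4 listed 21 each. Of all 4179 unigenes listed in both and at least 2-fold lower, stages 1 to 4 listed 89.7%, 85.9%, 90.6% and 81.0%. For the 569 unigenes at least 10-fold lower in stage 5, the median was 51.4 RPKM in the gametophyte, 1.02 in stage 5 and 4.38, 3.06, 5.83 and 2.23 in stages 1 to 4. Stage 3 had the highest of the levels in stages 1 to 4 for 209 of them, stage 2 for 140, stage 1 for 109 and stage 4 for 101. The stages before the fifth were thus above stage 5 in the median of this set, a comparison that the choice by a low stage 5 value favours.

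**Figure D3:**
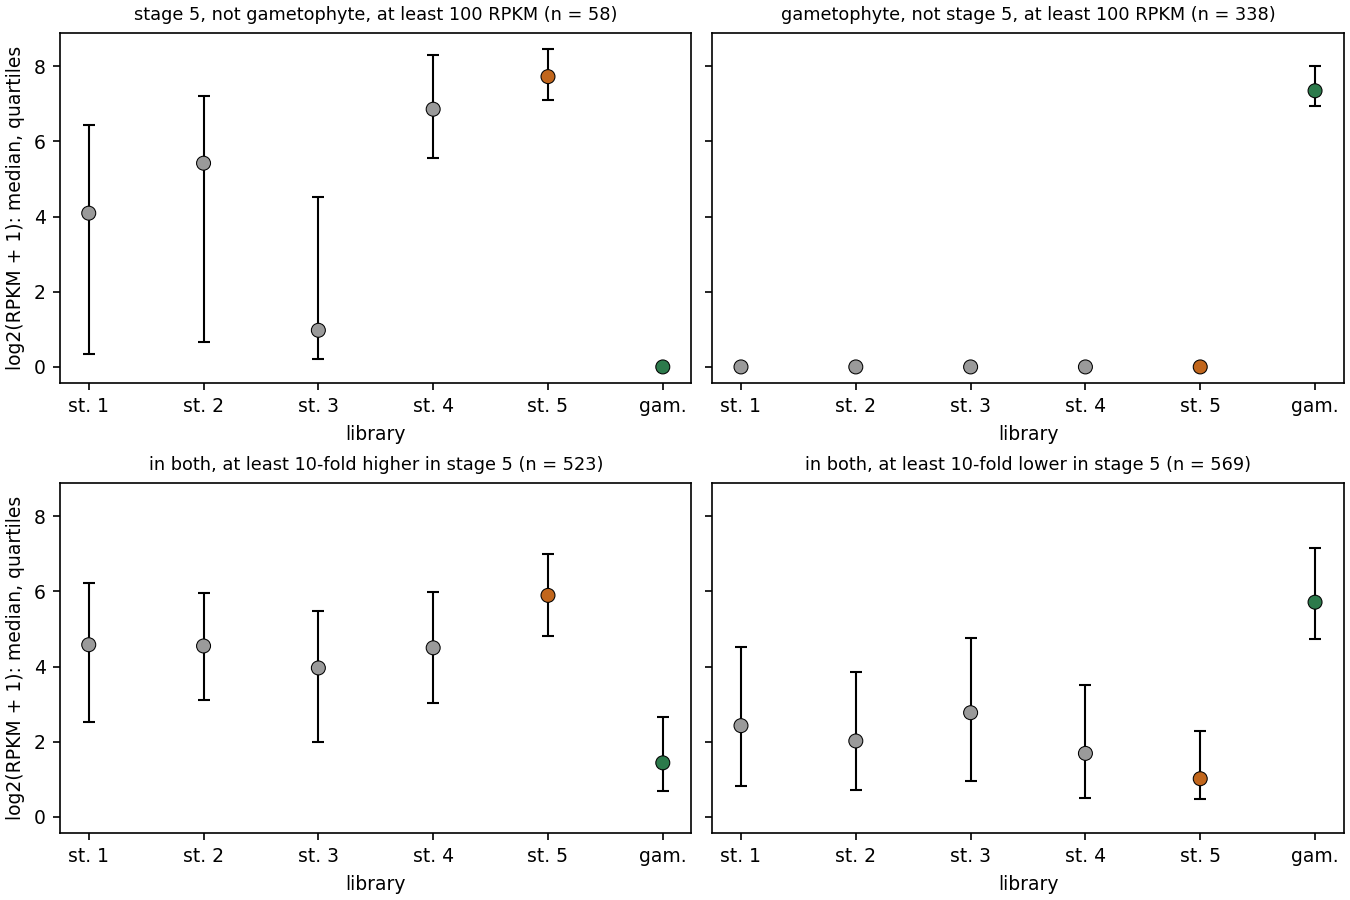
Points are medians and bars quartiles of log2(RPKM + 1) in each of the 6 libraries (st. 1 to st. 5, capsule stages; gam., young gametophyte) for 4 sets chosen from stage 5 and the gametophyte. The 58 unigenes of stage 5 at 100 RPKM or more that the gametophyte did not list had medians of 16.0, 41.8, 0.965 and 115 RPKM in stages 1 to 4, while the 338 of the gametophyte had a median of 0 in every capsule.

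Unigenes listed in stage 5 and not in the gametophyte were mostly low. Their median was 2.65 RPKM, 1025 of the 12129 reached 10 RPKM and 58 reached 100 RPKM. Among the 12129, 1969 had 20 or more reads. With 0 gametophyte reads, the limit of 3 reads was exceeded by the stage 5 level in 7246 of them, by at least 10-fold in 852 and by at least 100-fold in 69. For the rest, a difference from the gametophyte was not detectable at this depth. The 58 at 100 RPKM or more held 3.02% of the summed RPKM of stage 5 and 2.71% of its reads.

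The most abundant of them was Unigene28108, of 3128 bases, which ranked 3 in stage 5. It had 2795 RPKM, or 50096 reads, in stage 5 and 0 reads in the gametophyte, at least 11139-fold higher against the limit of 3 reads. The other capsule stages had 840, 2.001, 2.002 and 32.4 RPKM, from stage 1 to stage 4. It was thus high in the first and the last capsule stage and low between them. The next by level, of 1552 bases, had 932 RPKM in stage 5 and 84.9, 0.896, 0.673 and 185 RPKM in stages 1 to 4. The third, of 1398 bases, had 871 RPKM in stage 5 and 66.8, 0.870, 0.373 and 349 RPKM in the same order. The fifth, of 2124 bases, repeated the first pattern, with 834 RPKM in stage 5 and 510, 2.05, 0.0819 and 9.40 RPKM in stages 1 to 4. The fourth, of 1375 bases, was highest elsewhere. Its level was 2769 RPKM in stage 4 and 846 in stage 5, after 348, 321 and 53.8 RPKM in stages 1 to 3.

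Stage 4 listed all 58, stage 2 listed 51, stage 1 listed 46 and stage 3 listed 45. Values of 10 RPKM or more were held by 54 in stage 4, by 33 in each of stages 1 and 2, and by 19 in stage 3. Among stages 1 to 4, the highest value of a unigene was in stage 4 for 28 of the 58, and otherwise in stage 2 (14), stage 1 (12) or stage 3 (4). Of the 1025 at 10 RPKM or more in stage 5, 932 (90.9%) were listed in stage 4 and 894 (87.2%) in stage 2, against 660 (64.4%) in stage 1 and 579 (56.5%) in stage 3. Their medians were 7.14 and 5.74 RPKM in stages 4 and 2 and 0.901 and 0.340 in stages 1 and 3. The implied totals of stages 1, 2 and 3 all lay between 5747499 and 5752394 reads. Of all 74566 unigenes, stages 1 to 4 listed 42752, 40746, 41647 and 39269. In none of stages 1 to 4 were 20 of the 1025 listed.

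Unigenes listed in the gametophyte and not in stage 5 were higher and more numerous. Their median was 6.57 RPKM, 6642 of the 20473 reached 10 RPKM, 338 reached 100 RPKM and 9 reached 1000 RPKM, where stage 5 had a single such unigene. At least 20 recovered reads stood behind 4825 of them. The gametophyte level exceeded the limit that 0 reads in stage 5 allow (3 reads) in 17272, by at least 10-fold in 4674 and by at least 100-fold in 438. A minimum of 1 RPKM was not the same demand on both sides. With 1 read a unigene reached 1 RPKM at up to 261.7 bases in the gametophyte and 174.5 bases in stage 5. The shortest length allowed was 200 bases, so by this setting none of the 12129 could rest on 1 stage 5 read. By recovered lengths 1339 of the 20473 rested on 1 gametophyte read, a number that lengths that are too short can raise.

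The most abundant was CL10049.Contig1, of 3121 bases, which ranked 4 in the gametophyte as a whole. It had 4254 RPKM, or 50741 reads, in the gametophyte and 0 reads in each of the 5 capsule libraries. Against the limit of 3 reads in stage 5 it was at least 25356-fold lower there. The second, of 271 bases, stood at 3588 RPKM and the third, of 871 bases, at 2784 RPKM, and neither had a read in any capsule library. The fourth, of 811 bases, had 1799 RPKM in the gametophyte and 0.429, 0, 0.215 and 0 RPKM in stages 1 to 4.

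Of the 338 at 100 RPKM or more, 324 were listed in none of the other capsule stages either, nor were 16646 of all 20473. The rest were not spread evenly over the stages. Stage 1 listed 3048 (14.9%) of the 20473 and stage 3 listed 3066 (14.98%), against 1483 (7.24%) in stage 2 and 1160 (5.67%) in stage 4. Counting levels of 10 RPKM or more in the stages themselves, there were 308 and 286 of these unigenes in stages 1 and 3, and 7 and 14 in stages 2 and 4. Their highest levels were 302 RPKM in stage 1 and 322 in stage 3, and 23.1 and 39.8 in stages 2 and 4. Of the 12129 of the reverse kind, stages 2 and 4 listed 9496 (78.3%) and 8908 (73.4%) and stages 1 and 3 listed 7486 (61.7%) and 6756 (55.7%). For comparison, stages 2 and 4 listed 40746 and 39269 of all 74566 unigenes, and stages 1 and 3 listed 42752 and 41647.

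The most abundant unigenes of stage 5 and the gametophyte were partly the same. No unigene was among the 10 most abundant of both, 31 were among the 100 most abundant of both (31.0% of each list) and 359 among the 1000 most abundant (35.9%). The 100 most abundant held 14.9% of the summed RPKM in stage 5 and 20.3% in the gametophyte, with lower limits of 519.9 and 758 RPKM. Each list behaved differently in the other library. The stage 5 list had a median of 774 RPKM in stage 5 and 445 in the gametophyte, where 76 of the 100 were at 100 RPKM or more and 9 were not listed. The gametophyte list had a median of 1204 RPKM in the gametophyte and 115 in stage 5, where 51 were at 100 RPKM or more and 18 were not listed. At least 2-fold differences in favour of the library of the list were held by 46 of the stage 5 list and by 70 of the gametophyte list as deposited, and by 41 and 78 after TMM scaling. A difference in that direction is favoured by the choice of each list from its own library.

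The single most abundant unigene of the gametophyte, of 789 bases, had 21908 RPKM there, and 3407, 8201, 8287, 2933 and 1434 RPKM in stages 1 to 5. It ranked 12 in stage 5 at a level 15.3-fold lower by RPKM + 1. The second, of 246 bases, had 6809 RPKM in the gametophyte and 30.5 in stage 5, with 70.0, 114, 154 and 58.1 RPKM in stages 1 to 4. In stage 5 the second most abundant unigene, of 248 bases, had 3278 RPKM against 2391 in the gametophyte and 3725, 4969, 4912 and 8150 RPKM in stages 1 to 4. It ranked 12 in the gametophyte and was within 1.5-fold of it. The seventh of stage 5, a contig of 1363 bases, was nearly level between the organs, at 1760 RPKM in stage 5 and 1836 in the gametophyte. The sixth and eighth, of 502 and 1164 bases, stood at 1778 and 1738 RPKM in stage 5 and at 89.7 and 88.1 RPKM in the gametophyte. Both were higher in stages 5 and 1 than between them, the eighth at 1098 RPKM in stage 1 and at 85.3, 191 and 224 RPKM in stages 2 to 4.

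**Figure D4:**
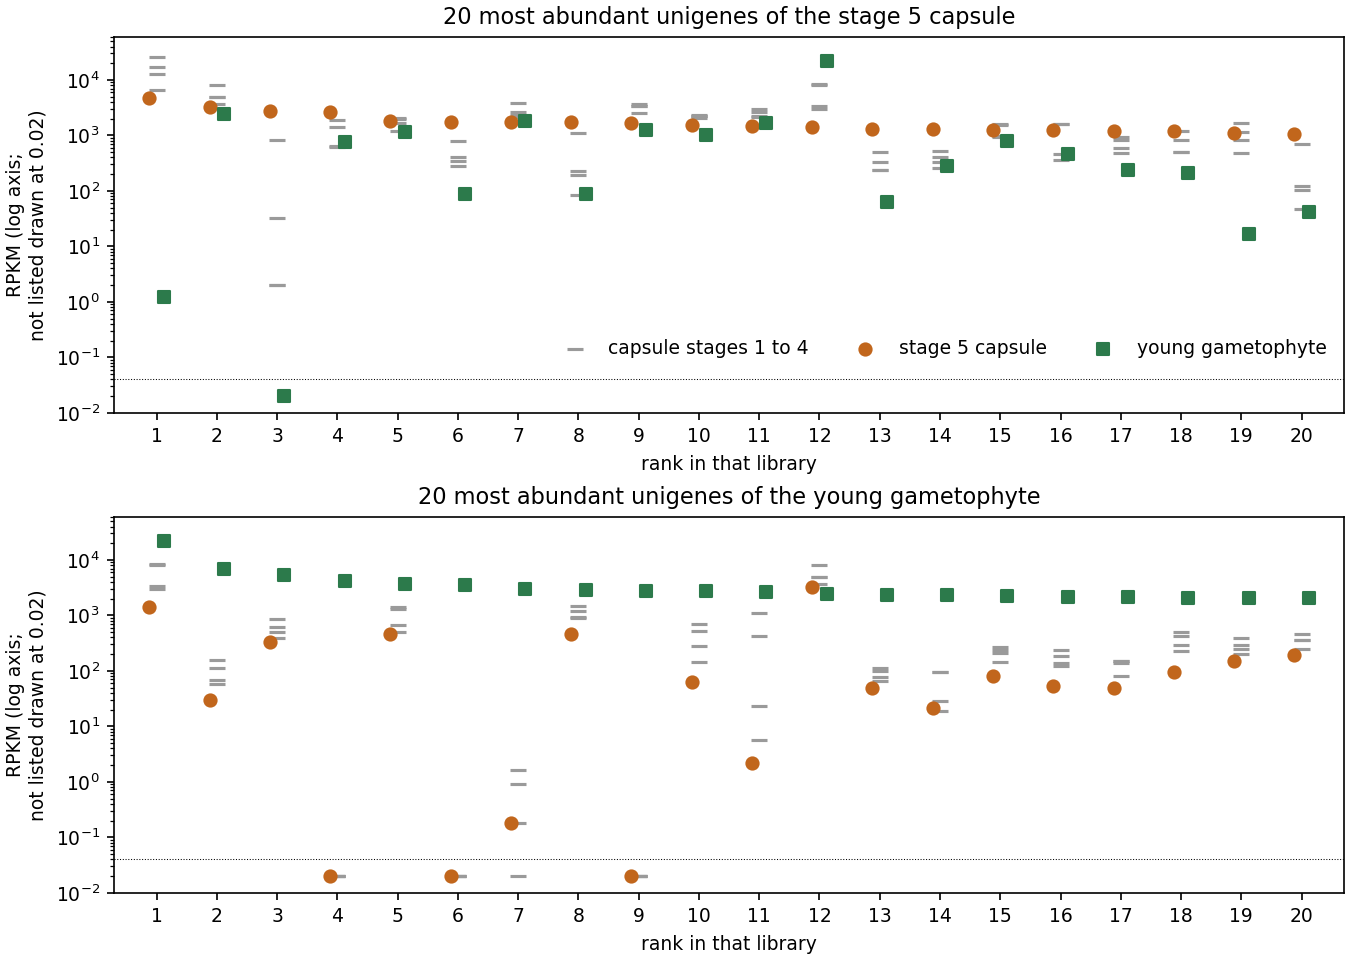
Levels in RPKM on a log axis are shown for the 20 most abundant unigenes of stage 5 (top) and of the gametophyte (bottom), with circles for stage 5, squares for the gametophyte and dashes for capsule stages 1 to 4, and values not listed drawn at 0.02 below the dotted line. In the top panel 1 unigene of the first 10 was not listed in the gametophyte, and in the bottom panel 3 of the first 10 were not listed in stage 5.

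The 31 unigenes among the 100 most abundant of both libraries were abundant in every capsule. Their lowest values were 205, 192, 251 and 251 RPKM in stages 1 to 4, which had no part in the choice. Their medians were 1056, 1159, 1281 and 1346 RPKM in stages 1 to 4, 931 in stage 5 and 1145 in the gametophyte. Together they held between 5.44% (stage 5) and 7.83% (stage 3) of the summed RPKM of a library.

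Length differed between the classes. Unigenes listed in both had a median recovered length of 803 bases, those listed in stage 5 and not in the gametophyte 325 bases, and those of the reverse kind 287 bases. Among those with 10 RPKM or more these medians were 1426.5, 449 and 375 bases. Of the 19494 unigenes under 300 bases, 56.1% were listed in the gametophyte and not in stage 5, 26.7% the reverse and 17.2% in both. Of the 5079 unigenes of 2000 bases and over, 5.55% were listed in the gametophyte and not in stage 5, 9.14% the reverse and 85.3% in both. In this length class 34.1% were listed in both and at least 2-fold higher in stage 5, and 13.9% were at least 2-fold lower, as deposited. Where few libraries list a unigene its recovered length rests on few values and may be too short, which makes this contrast less certain. This limit weighs unevenly on the classes. Of the 20473 listed in the gametophyte and not in stage 5, 16646 were listed in no other library. Of the 12129 of the reverse kind, 498 were. Because the smallest fitting length was taken, such errors would shorten mostly the gametophyte class, which is the direction of the contrast. The part that length and reads per unigene played in the number of unigenes listed on one side was not tested.

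**Figure D5:**
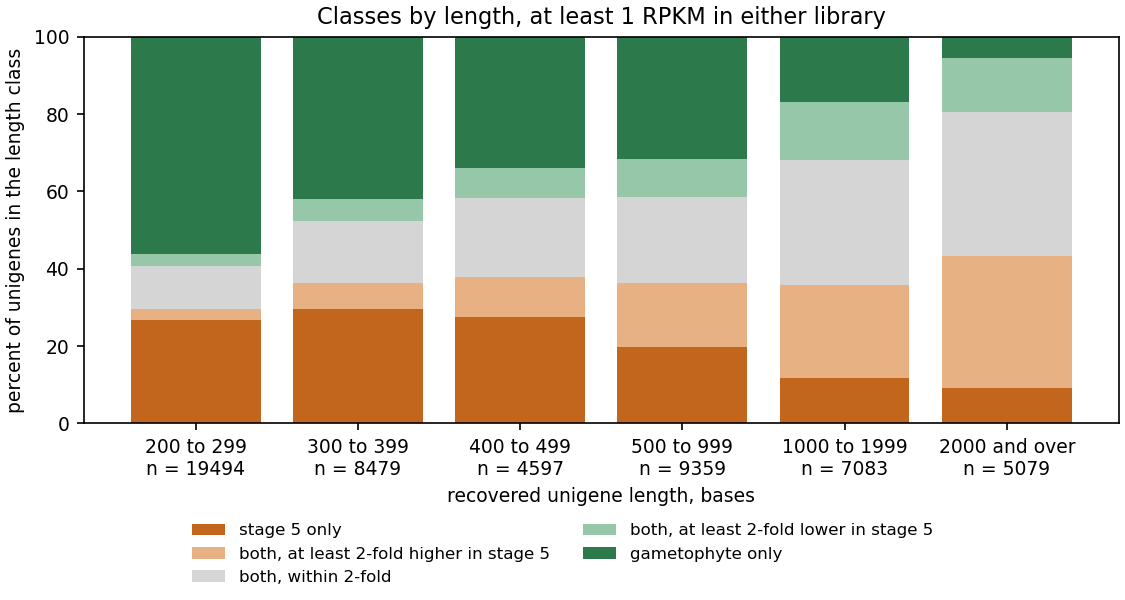
Bars give the percent of unigenes in each class, by recovered length in bases, for the 54091 unigenes with at least 1 RPKM in stage 5 or the gametophyte, with n under each bar. The share listed in the gametophyte and not in stage 5 was 56.1% under 300 bases and 5.55% at 2000 bases and over. Recovered lengths can be too short, mostly for unigenes listed in the gametophyte alone.

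Identifiers of contigs carry a cluster number, and contigs that share one are called a cluster here without further meaning. Of the 2646 contigs listed in stage 5 and not in the gametophyte, 1237 (46.7%) had another contig of the same cluster listed in the gametophyte. For the 3830 contigs of the reverse kind, 2337 (61.02%) had another contig of the cluster in stage 5. At 100 RPKM or more these numbers were 7 of 25 and 55 of 88. For comparison, the gametophyte listed 46680 and stage 5 listed 43323 of all 74566 unigenes. How often any contig has another of its cluster listed in a library was not worked out, so these shares are not read as a trait of either side. With the contigs of each cluster summed, 6701 of 9151 clusters (73.2%) were listed on both sides, against 6846 of 13322 contigs (51.4%). By the sums 3382 clusters were at least 2-fold higher in stage 5 and 2547 lower as deposited, whereas 4956 contigs were higher and 5110 lower one by one.

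Contigs of one cluster also pointed in opposite directions. Of 3272 clusters with at least 2 contigs kept, 1027 (31.4%) held one contig at least 2-fold higher and another at least 2-fold lower in stage 5. In 85 of them this held with contigs that both libraries listed, and in 370 with contigs listed on one side, which are beyond 2-fold by construction, and a cluster can count under both. With 10 RPKM or more this held for 190 of 826 clusters (23.0%), in 26 with contigs listed in both libraries and in 22 with contigs listed on one side. Of all 13322 contigs kept at 1 RPKM, 4956 were higher and 5110 lower, so unrelated contigs would often be opposed as well. How often was not worked out, and these counts are not read as a trait of clusters. Clusters were ordered by the lower of the levels that their opposed contigs reached on their own sides. In the first, a contig of 551 bases had 334 RPKM in stage 5 and 0 reads in the gametophyte, and a contig of 1189 bases had 372 RPKM in the gametophyte and 36.1 in stage 5. From stage 1 to stage 4 the first contig had 0.316, 602, 1.26 and 574 RPKM, and the second 322, 50.7, 381 and 46.7 RPKM. Stages 2 and 4 had levels of the kind seen in stage 5, and stages 1 and 3 of the kind seen in the gametophyte. In the second such cluster, contigs of 4300 and 4376 bases had 148 and 23.5 RPKM in stage 5 and 12.7 and 200.9 RPKM in the gametophyte. There the 4 other stages lay within 39.5 to 78.6 RPKM for the first contig and 41.0 to 68.7 RPKM for the second. Reads that match several contigs could have been divided between them, which leaves the level of any 1 contig of a cluster uncertain.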

How the data were processed

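RNA sequencing libraries (HiSeq 2000, per the series text) were deposited as 1 table each. The authors gave each of 74566 unigenes an RPKM, per the file headers. A dash was read as 0. For assembler, aligner, counting rule and reads with several matches, the entry is: not given in the sources used here. No identifier could be paired with a gene name, and no reference was used.

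Library totals were estimated as those that put the lowest values on 1 read and a whole length. For each unigene the smallest length from 200 to 15000 bases was then taken that turns each value into a whole read number (tolerance 0.9 of the last printed digit). This succeeded for 100.0% of unigenes. Recovered reads summed to 99.6% of the implied total of stage 5 and 96.1% of that of the gametophyte. Any multiple of a total would also give whole reads. Were the gametophyte total double, reads in all 5 capsule libraries would be even for about every other unigene, and this held for 2.35% of 13278. Reads of unigenes listed in 1 library can be underestimated.

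The ratio was that of RPKM + 1 (pseudocount 1), with a minimum of 1 RPKM on either side, and again of 10. Ratios on this scale understate differences of low unigenes. Exact conditional-binomial 95% intervals and the limit of 3 reads cover counting error only. They treat reads as independent and are too narrow if both mates of a pair were counted, which no source used here states. Scripts used Python 3.11.15, numpy 2.4.6, pandas 2.3.3 and scipy 1.17.1, and were checked on simulated reads. The simulation took the recovered lengths as true, so it could not tell whether those lengths were themselves too short. Named were, in each of 4 classes, the unigene with the largest ratio or level. The unigenes and lists were chosen with earlier results of these data known. The seventh sample, a pool of both organs, was not analysed here.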

Additional observations from a re-analysis of the deposited data

How the results depend on the processing

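With 1 library a side no value has an error between replicates, and the intervals cover counting error only. No paired analysis was possible because each group had 1 library. The cause of the shifts below was not tested.

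The number of unigenes at least 2-fold higher in stage 5, 18712 as reported, was 4656 at 10 RPKM, 3602 with a pseudocount of 10, 6884 with the counting interval beyond 2-fold, 8133 at 500 bases and 7814 at 4-fold. The number lower, 24652 as reported, was 8624 at 10 RPKM, 8113 with a pseudocount of 10, 13854 with the counting interval and 7141 at 500 bases. Among unigenes listed in both, the 6583 higher became 3631 at 10 RPKM, 2577 with a pseudocount of 10, 3784 with the counting interval and 2426 at 4-fold. The 4179 lower became 1982, 1471, 2299 and 1715 in the same order, and 2719 at 500 bases. Unigenes listed in stage 5 and not in the gametophyte numbered 1025 at 10 RPKM, 19195 without a minimum and 3152 at 500 bases, and those of the reverse kind 6642 at 10 RPKM and 4422 at 500 bases. Minimums of level or length keep fewer unigenes by construction. Recovered lengths that are too short can make a length minimum remove more on the gametophyte side.

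A minimum of 20 reads, chosen after seeing the data, gave 6938 higher, 7189 lower, 2364 listed in both and lower, 1969 listed in stage 5 and not in the gametophyte, and 4825 of the reverse kind. With 500 bases in addition these were 5872, 5160, 2118, 1459 and 3042.

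The median log2 ratio of unigenes listed in both, 0.30 as reported, was −0.051 after median-ratio scaling, a turn in sign, and 0.0125 after TMM scaling. It was 0.63 at 10 RPKM, 0.22 without a minimum, 0.39 with a pseudocount of 0.1, 0.10 with a pseudocount of 10, 0.26 with contigs of a cluster summed, 0.42 after thinning, 0.51 at 500 bases, 0.70 at 20 reads and 0.68 at 20 reads and 500 bases. The counts at 2-fold named above stayed within 1.5-fold under TMM and median-ratio scaling, thinning, a pseudocount of 0.1 and contigs summed among all unigenes. Counts at higher folds did not all do so. The 569 unigenes listed in both and at least 10-fold lower became 792 under TMM and 858 under median-ratio scaling, and the 26 at 100-fold became 41 and 45. Among contigs alone, 5110 were lower one by one and 2547 as summed clusters. The 31 unigenes common to the lists of 100 became 35 with summed contigs, 32 after thinning and 35 at 500 bases.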
